A study of Mus musculus with 6 samples.

Results

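Zfp500 to Zfp999 are the mouse zinc finger genes that carry a systematic number from 500 to 999. All autosomal protein-coding genes with such a symbol in GENCODE release M21 were taken, which gave 202 of 20780 autosomal protein-coding genes, on 19 chromosomes. The 1 X-linked gene with such a symbol was left out by the rule. The rule reads the symbol and no peak value.

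H3K4me3, the trimethylation of lysine 4 of histone H3 found at active promoters, was mapped by ChIP-Seq in STHdh cells, immortalised striatal progenitors of the mouse (strain C57BL/6). Q7SST is the wild type line (STHdhQ7, spelled STHdh7 in the labels) given vehicle, and Q111SST is the mutant line (STHdhQ111), whose huntingtin gene carries the expanded glutamine repeat of Huntington's disease, given vehicle. The other 4 conditions were STHdhQ111 cells given 10 uM of the antihistamine cyproheptadine, the antipsychotic loxapine, diacylglycerol kinase inhibitor II (DKI) or the antihistamine meclizine, and all 6 groups were kept without serum for 24 hours. Each condition had 1 deposited peak list, with 30758 to 45564 peaks, so conditions are compared without replicates and without tests. Each genotype was 1 cell line, so an effect of the repeat and a difference between the lines cannot be told apart, and no list of treated wild type cells was analysed here. The labelled cell type was checked against its markers: 4 of 8 neural progenitor genes, among them Vim, Notch1 and Hes1, were marked in all 6 lists, Nes and Sox2 were each marked in 5, and Sox1 in none. Since 53.5% of all autosomal protein-coding genes were marked in all 6 lists, this count does not set the progenitor genes apart. Of 6 genes of mature striatal neurons 0 were marked in all 6 lists, but Penk was marked in 5, Ppp1r1b and Rgs9 each in 4 and Adora2a in 1, with Drd1 and Drd2 in none. Of 10 genes of other cell types, 9 were marked in none, and Aif1, a microglial gene, had peaks at the 6.14 percentile or below in Q7SST and Q111SST.

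Most of these genes encode C2H2 zinc finger proteins, in which each finger holds a zinc ion and contacts a short stretch of DNA. Many also carry a KRAB domain, which recruits the co-repressor Trim28 and with it the histone methyltransferase Setdb1, and such proteins are known for silencing transposable elements. KRAB zinc finger genes multiplied by local duplication, so they often lie in arrays of similar neighbours. A pattern of the KRAB A box was found in the translated coding sequence of 125 of the 202 genes, and the median gene had 10 matches to the C2H2 finger pattern.

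The promoters of 7 genes are shown, from 250 bases before to 50 bases after the RefSeq start on build GRCm38.p6, 5′ to 3′ on the gene's own strand, with CpG dinucleotides in capitals. Zfp605 (chr5:110109842-110110141, plus strand) and Zfp882 (chr8:71908356-71908655, plus strand) had the 2 strongest peaks that were found in the wild type line and in no list of the mutant line, and Zfp879 (chr11:50841503-50841802, minus strand) showed the opposite.
Zfp605: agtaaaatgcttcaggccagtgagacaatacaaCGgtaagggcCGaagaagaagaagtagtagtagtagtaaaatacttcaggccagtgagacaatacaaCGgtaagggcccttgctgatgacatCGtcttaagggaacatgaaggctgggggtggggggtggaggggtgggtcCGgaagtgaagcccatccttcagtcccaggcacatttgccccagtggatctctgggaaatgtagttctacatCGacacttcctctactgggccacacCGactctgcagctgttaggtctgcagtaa
Zfp882: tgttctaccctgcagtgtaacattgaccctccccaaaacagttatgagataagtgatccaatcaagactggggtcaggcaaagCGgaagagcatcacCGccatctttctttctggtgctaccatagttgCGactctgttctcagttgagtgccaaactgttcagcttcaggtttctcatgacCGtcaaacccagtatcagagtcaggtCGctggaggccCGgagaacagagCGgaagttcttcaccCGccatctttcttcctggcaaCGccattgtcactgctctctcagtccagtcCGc
Zfp879: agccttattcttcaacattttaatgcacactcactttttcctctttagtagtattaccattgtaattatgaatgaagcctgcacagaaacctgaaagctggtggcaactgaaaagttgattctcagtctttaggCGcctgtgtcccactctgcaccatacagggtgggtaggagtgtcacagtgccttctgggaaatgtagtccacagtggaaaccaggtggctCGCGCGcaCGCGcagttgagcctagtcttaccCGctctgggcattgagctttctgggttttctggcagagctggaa
These 3 windows held 7, 10 and 7 CpG, against a median of 14 in the 134 promoters of genes marked in all 6 lists that were matched to a RefSeq promoter. The other 4 promoters come from the chromosome 4 cluster described further on, where Zfp984 (chr4:147809739-147810038, minus strand) and Zfp933 (chr4:147848369-147848668, minus strand) were marked in all 6 lists, and Zfp600 (chr4:146156577-146156876, plus strand) and Zfp985 (chr4:147553027-147553326, plus strand) in none.
Zfp984: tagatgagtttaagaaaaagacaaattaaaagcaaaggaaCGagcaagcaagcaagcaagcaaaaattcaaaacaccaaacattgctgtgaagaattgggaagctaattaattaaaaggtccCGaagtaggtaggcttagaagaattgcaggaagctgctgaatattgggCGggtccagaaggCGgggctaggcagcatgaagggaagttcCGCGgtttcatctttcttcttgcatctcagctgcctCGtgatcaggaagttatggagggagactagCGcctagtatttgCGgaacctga
Zfp933: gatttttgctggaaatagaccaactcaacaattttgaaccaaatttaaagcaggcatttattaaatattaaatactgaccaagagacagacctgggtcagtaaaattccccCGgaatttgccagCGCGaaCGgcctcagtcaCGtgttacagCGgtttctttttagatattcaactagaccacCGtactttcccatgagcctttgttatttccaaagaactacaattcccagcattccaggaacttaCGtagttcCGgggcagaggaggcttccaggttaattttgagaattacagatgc
Zfp600: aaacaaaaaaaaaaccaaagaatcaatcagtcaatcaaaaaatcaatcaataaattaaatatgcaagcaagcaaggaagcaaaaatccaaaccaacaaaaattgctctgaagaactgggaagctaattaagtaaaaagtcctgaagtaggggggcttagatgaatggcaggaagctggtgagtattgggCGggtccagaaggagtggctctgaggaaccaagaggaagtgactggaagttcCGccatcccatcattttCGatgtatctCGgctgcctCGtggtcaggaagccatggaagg
Zfp985: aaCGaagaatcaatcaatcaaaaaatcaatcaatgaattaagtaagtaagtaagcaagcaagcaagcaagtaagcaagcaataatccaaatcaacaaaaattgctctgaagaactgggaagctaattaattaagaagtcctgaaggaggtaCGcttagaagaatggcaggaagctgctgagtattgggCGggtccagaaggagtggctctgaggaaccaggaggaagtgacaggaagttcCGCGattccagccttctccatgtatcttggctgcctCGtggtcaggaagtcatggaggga
Zfp984 and Zfp933 held 9 CpG each, Zfp600 held 5 and Zfp985 held 6.

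A gene was called marked in a list when 1 or more of its annotated starts had a peak no further than 1 kb away. Of the 202 genes, 160 (79.2%, 95% Wilson interval 73.1 to 84.2%) were marked in all 6 lists, against 53.5% of all autosomal protein-coding genes. In no list were 27 (13.4%, interval 9.35 to 18.7%) marked, against 37.2% of all genes, and the other 15 were marked in 1 to 5 lists. The lower-numbered genes Zfp1 to Zfp499 were marked more often still, with 143 of 156 (91.7%, interval 86.3 to 95.1%) in all 6 lists and 7 in none. These intervals cover counting error only, and genes of an array share sequence. In each list 8 of the 202 genes shared 4 peaks with each other, so these 8 were not marked separately.

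By list, 170 of the 202 genes were marked in Q7SST (84.2%, interval 78.5 to 88.5%) and 167 in Q111SST (82.7%, interval 76.9 to 87.3%). The count was 162 under cyproheptadine, 166 under loxapine, 162 under DKI and 166 under meclizine. The 6 shares lay between 80.2% and 84.2%, and each lay within the interval of every other. The shares of all genes ran from 55.3% under cyproheptadine to 59.9% in Q7SST, and in both sets Q7SST had the highest share and the cyproheptadine and DKI lists the lowest.

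**Figure D1:**
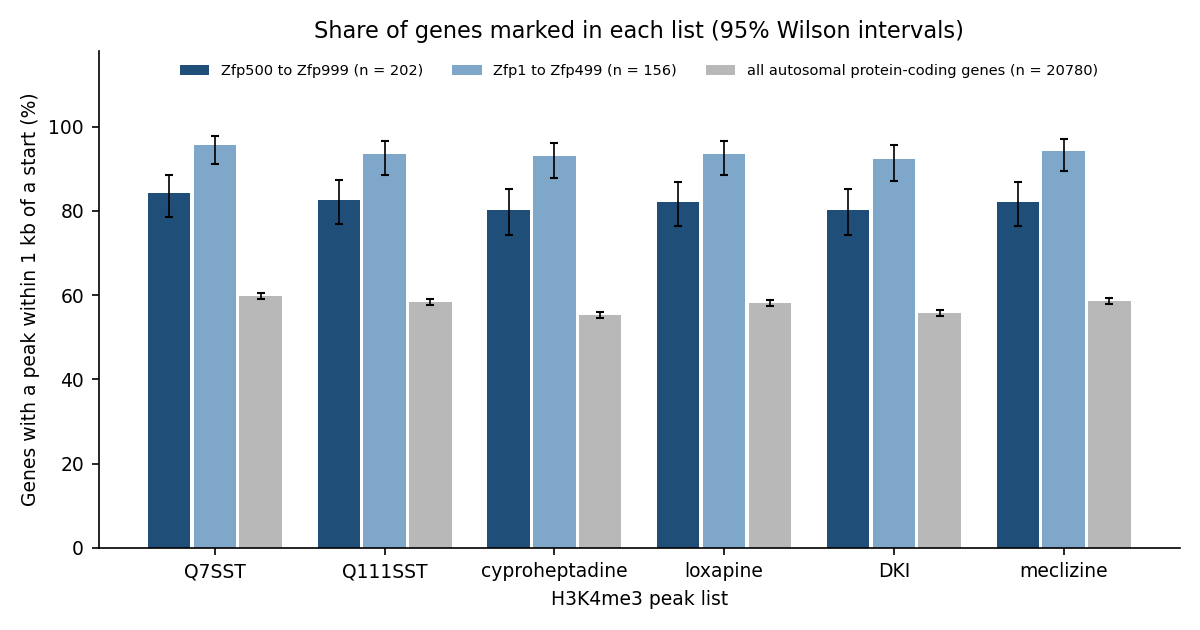
Percent of genes with an H3K4me3 peak within 1 kb of a start (y axis) in each of the 6 lists (x axis), for Zfp500 to Zfp999, Zfp1 to Zfp499 and all autosomal protein-coding genes, with 95% Wilson intervals. In every list the dark bars lie between 80.2% and 84.2%, below the Zfp1 to Zfp499 bars and above the grey bars of all genes.

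The peaks were stronger and narrower than those of marked genes at large. Strength was taken as the percentile of the strongest peak near a gene among all peaks of its list. Scores were thus compared within a list only, except where a limit at the pooled median is used. In Q7SST the median gene of the 170 marked stood at the 89.3 percentile, with quartiles of 74.9 and 96.2, against a median of 80.8 for all marked genes. In Q111SST it stood at 87.6 against 82.9, under cyproheptadine at 82.2 against 79.5, and under loxapine at 86.5 against 83.3. Under DKI it stood at 80.7 against 76.3, and under meclizine at 86.0 against 80.6. The median of the zinc finger genes was thus above that of all marked genes in each of the 6 lists. Zfp1 to Zfp499 had a higher median still in 5 of the 6 lists, such as 89.7 in Q111SST and 86.4 under cyproheptadine, and 88.8 in Q7SST.

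Their peaks were at the same time narrower. The median width was 1474 bp in Q7SST against 1726 bp for all marked genes, and 1533 bp in Q111SST against 1810 bp. It was lowest under DKI, at 1300 bp against 1473 bp, and next under cyproheptadine, at 1340.5 bp against 1553 bp. Peaks of 3 kb or more were found at 4 of the 170 genes in Q7SST, 5 of 167 in Q111SST, 6 under loxapine, 3 under meclizine and 0 under cyproheptadine or DKI. For all marked genes the share with such a peak was 5.22% in Q7SST, 6.497% in Q111SST, 5.66% under loxapine, 5.46% under meclizine, 3.04% under cyproheptadine and 2.13% under DKI, above the 2.35%, 2.99%, 3.61% and 1.81% of the zinc finger genes in the first 4 of these. The strongest peak covered a start in 85.8 to 92.4% of the marked genes of a list, against 76.8 to 86.2% for all marked genes. Zfp1 to Zfp499 had median widths of 1308 to 1643 bp over the 6 lists, so narrow peaks were not particular to the higher numbers.

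Genes with and without the KRAB pattern differed in the height and width of their peaks. Of the 125 with the pattern, 95 (76.0%, interval 67.8 to 82.6%) were marked in all 6 lists, and of the 77 without it 65 were (84.4%, interval 74.7 to 90.9%). Outside the chromosome 4 cluster described further on, 91 of 108 genes with the pattern were (84.3%, interval 76.2 to 89.9%), so the gap in this share lay in that cluster. The marked KRAB genes stood at a median percentile of 93.4 in Q7SST and 91.6 in Q111SST, and the others at 79.0 and 80.5. Their median width was 1381 bp in Q7SST and 1434 bp in Q111SST, against 1820 bp and 1807.5 bp for the others. In each of the other 4 lists too, the KRAB genes had the higher median percentile and the smaller median width. CpG content and read placement moved with this split: the median ratio of observed to expected CpG over 500 bases on either side of the 5′-most start was 0.457 for KRAB genes and 0.709 for the others. At least 90% of the 50-base windows around that start were found once in the genome at 71 of the 125 KRAB genes (56.8%) and at 76 of the 77 others (98.7%), and the part of either measure in the difference was not tested.

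The genes with the highest mean percentile over the 6 lists were Zfp820, Zfp953, Zfp866, Zfp960 and Zfp706. Zfp820, in a chromosome 17 array, had percentiles of 99.5 in Q7SST, 99.8 in Q111SST, 99.4 under cyproheptadine, 99.6 under loxapine, 99.5 under DKI and 99.7 under meclizine. Its peaks were 1202 to 1468 bp wide, narrower in each list than the median of the marked zinc finger genes. The other 4 had mean percentiles of 99.3 to 99.5, and the strongest peaks of Zfp953 and Zfp866 also lay within reach of starts of other genes (Gm28044 for Zfp953, Atp13a1 and Gm20422 for Zfp866).

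At the low end among genes marked in all 6 lists were Zfp532, Zfp651, Zfp969, Zfp968 and Zfp990. Zfp532 had percentiles of 9.57 in Q7SST, 48.2 in Q111SST, 14.4 under cyproheptadine, 31.8 under loxapine, 23.4 under DKI and 49.4 under meclizine. The Q7SST and cyproheptadine values were the lowest, and no list placed it above its own median peak. Its strongest peak lay at different starts in different lists, so these values do not follow 1 promoter. Of the 160 genes marked in all 6 lists, 8 had strongest peaks that shared no base over the 6 lists: Zfp516, Zfp532, Zfp661, Zfp672, Zfp777, Zfp800, Zfp968 and Zfp984. Zfp651 lay between the 24.997 and 47.2 percentile with a peak of 1091 to 2450 bp, so it was weak but not narrow. Zfp969 and Zfp968 are neighbours in a chromosome 2 array whose starts lie in repeated sequence, as given with the arrays.

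Among the genes marked in all 6 lists, the widest median peaks were at Zfp827, Zfp526, Zfp622, Zfp521 and Zfp609, none of which carried the KRAB pattern. Zfp827 had widths of 3058 bp in Q7SST, 3681 bp in Q111SST, 1045 bp under cyproheptadine, 3877 bp under loxapine, 1042 bp under DKI and 3298 bp under meclizine. The cyproheptadine and DKI peaks stood apart from the other 4, which were all above 3 kb. Zfp521, a transcription factor known for promoting neural differentiation, had its widest peak in Q7SST at 4109 bp, with 2903 bp in Q111SST, 2700 bp under cyproheptadine, 3530 bp under loxapine, 1517 bp under DKI and 2822 bp under meclizine. Its percentile was between 41.0 and 56.7, near the middle of each list. Zfp622 was steady, with widths from 2888 to 3002 bp, and the peak of Zfp526 (2851 to 3443 bp) also lay within 1 kb of a start of Dedd2.

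The narrowest among the genes marked in all 6 lists were at Zfp773, Zfp532, Zfp990, Zfp661 and Zfp772, of which Zfp773, Zfp990, Zfp661 and Zfp772 carried the KRAB pattern. Zfp773 had widths of 360 bp in Q7SST, 283 bp in Q111SST, 214 bp under cyproheptadine, 376 bp under loxapine, 211 bp under DKI and 336 bp under meclizine. Its percentiles were 99.98, 89.1, 57.7, 94.0, 70.4 and 90.3 in the same order, which made the Q7SST peak one of the strongest of its list although it spanned only 360 bp. Zfp772, next to it in the same small group of genes, was 635 to 796 bp wide, and Zfp661, whose start lies within 1 kb of one of Mrps5, was 286 to 1434 bp wide, the widest under loxapine at another of its starts.

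The first comparison asked which of these promoters differed between the wild type and the mutant line, both with vehicle. In Q7SST 6 genes were marked that were not marked in Q111SST (2.97%, interval 1.37 to 6.33%, against 3.53% of all genes): Zfp536, Zfp605, Zfp663, Zfp704, Zfp811 and Zfp882. The reverse held for 3 (1.49%, interval 0.506 to 4.27%, against 2.04% of all genes): Zfp503, Zfp612 and Zfp879. Both intervals held the background share.

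Across all lists, 5 genes were marked in Q7SST and in none of the 5 mutant lists, a share of 2.48% against 2.76% of all genes: Zfp536, Zfp605, Zfp663, Zfp811 and Zfp882. Zfp882, a KRAB gene with 13 finger matches on chromosome 8, had a Q7SST peak of 1115 bp over its start at the 96.7 percentile, with a score of 189. In the mutant lists the nearest peak lay 13676 to 13714 bp away. Zfp882 was also the 1 gene of the 5 that was marked in Q7SST alone under each of the other settings tried. In its promoter, GATGGCGG was found 2 times and CCAAT once on either strand.

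Zfp605, a KRAB gene with 12 finger matches on chromosome 5, had a Q7SST peak of 855 bp over its start at the 94.7 percentile. A second peak, 1277 to 1451 bp from the start, was present in all 6 lists, with percentiles of 72.3 in Q7SST, 95.6 in Q111SST, 89.5 under cyproheptadine, 90.8 under loxapine, 90.7 under DKI and 92.5 under meclizine. The peak over the start was thus found in the wild type list only, while the neighbouring peak had its lowest percentile there. With a window of 5 kb both peaks counted and Zfp605 was marked in all 6 lists.

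The other 3 had weak peaks in Q7SST. Zfp663 stood at the 32.6 percentile with 216 bp, Zfp536 at the 32.6 percentile with 1108 bp, and Zfp811 at the 7.83 percentile with 867 bp. Zfp536 is known as a repressor of neuronal differentiation, and Zfp811 is a KRAB gene of a chromosome 17 array. All 3 peaks lay below the median score of their list, unlike those of Zfp605 and Zfp882.

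Zfp879 was the 1 gene marked in all 5 mutant lists and not in Q7SST (0.495%, against 0.895% of all genes). This KRAB gene on chromosome 11 had percentiles of 48.2 in Q111SST, 44.3 under cyproheptadine, 44.7 under loxapine, 46.1 under DKI and 71.0 under meclizine. Its peaks were 211 to 681 bp wide and covered or lay within 12 bp of the start, and the nearest Q7SST peak was 13489 bp away. The peaks were small, but they were found in 5 lists at 1 place.

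Zfp941 and Zfp972 were marked in both lines, with a strong peak in the wild type list only. Zfp941, a KRAB gene with 10 finger matches on chromosome 7, had percentiles of 89.4 in Q7SST, 12.9 in Q111SST, 12.2 under loxapine and 9.13 under meclizine, and no peak within 1 kb under cyproheptadine or DKI. Its Q7SST peak spanned 1402 bp and those of the mutant lists 253 to 633 bp. Zfp972 had 78.0 in Q7SST, 18.7 in Q111SST, 9.13 under meclizine and no peak within 1 kb in the other 3 lists, and only 29.3% of the 50-base windows around its start were found once in the genome. In both genes the Q7SST peak stood apart from every mutant list, although at 1 kb with all peaks neither gene counted as gained. With lists of equal size, and with scores at or above the pooled median, both were marked in Q7SST and no mutant list.

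**Figure D2:**
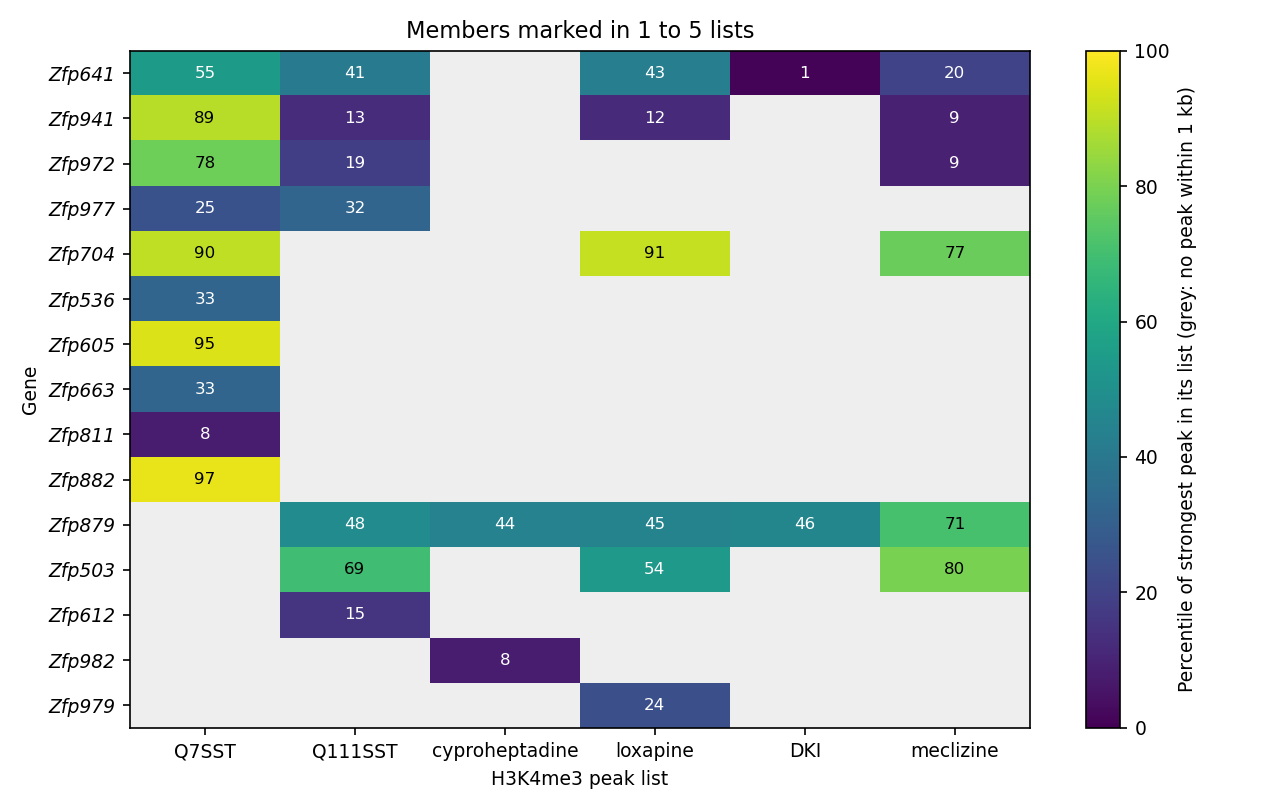
Percentile of the strongest peak within 1 kb of a start (colour and number) for the 15 genes marked in 1 to 5 lists (rows) in each of the 6 lists (columns), with grey where there was no such peak. Zfp605 and Zfp882 were bright in Q7SST alone, at 94.7 and 96.7, and Zfp879 was present in each mutant list and absent from Q7SST.

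At Zfp704 and Zfp503 a peak lay on either side of the 1 kb limit in different lists. At Zfp704, a transcription factor gene on chromosome 3, each list had 1 peak, 989 bp from the start in Q7SST, 1047 bp in Q111SST, 1043 bp under cyproheptadine, 999 bp under loxapine, 1083 bp under DKI and 959 bp under meclizine. All 6 lists thus held this peak. At Zfp503, also called Nolz1, which is known in the developing striatum, the peak nearest to the start lay 720 bp away in Q111SST, 790 bp under loxapine and 745 bp under meclizine, and 1180 bp in Q7SST, 1236 bp under cyproheptadine and 1218 bp under DKI. Every list held a peak there, and the mutant lists also held 3 more within 5 kb.

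Among the 160 genes marked in all 6 lists, the percentile in Q7SST differed from that in Q111SST by a median of -0.407 (quartiles -2.97 and 2.74), against -1.13 for all genes marked in all 6. A difference of more than 10 percentile points was found for 18 of the 160 (11.2%), 8 higher and 10 lower in Q7SST, against 18.4% of all such genes. There was no replicate to set these differences against.

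The largest difference was at Zfp709, a KRAB gene with 18 finger matches on chromosome 8, which had percentiles of 2.76 in Q7SST, 70.7 in Q111SST, 72.6 under cyproheptadine, 69.0 under loxapine, 55.1 under DKI and 61.0 under meclizine. Zfp810, a KRAB gene of the chromosome 9 array, had 38.9 in Q7SST and between 55.1 and 79.4 in the mutant lists. Neither gene's wild type value overlapped the 5 mutant values, but both genes were picked for their difference from Q111SST. How often other genes show this was not counted. Zfp532, Zfp970 and Zfp937 followed in this direction, and Zfp937 had 79.0 in Q7SST against 93.4 to 96.9 in the mutant lists. Zfp970 had 68.1 in Q7SST, inside the range of its mutant values, which ran from 62.4 to 89.6. Zfp709 and Zfp882 are neighbours in 1 array of 4 genes and differed in opposite directions, with Zfp709 low and Zfp882 high in the wild type list.

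In the other direction stood Zfp692, Zfp990, Zfp976, Zfp991 and Zfp966. Zfp976, a KRAB gene of a chromosome 7 array, had percentiles of 96.8 in Q7SST, 69.3 in Q111SST, 73.8 under cyproheptadine, 70.9 under loxapine, 72.0 under DKI and 84.1 under meclizine. Zfp991, in the chromosome 4 cluster, had 94.9 in Q7SST and between 72.1 and 83.3 in the mutant lists. For both the wild type value lay above all 5 mutant values, but both were likewise picked for their difference from Q111SST. Zfp692, with no KRAB pattern, had 67.2 in Q7SST and between 29.3 and 63.4 in the mutant lists, with a Q7SST peak of 247 bp against 880 to 1217 bp. The Q7SST peak ended 50 bp from the start while the peaks of the 5 mutant lists covered it, so with a peak required over the start Zfp692 was marked in the mutant lists only.

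The 4 compounds were each compared with Q111SST, and since all share that list, each comparison is given on its own. Under cyproheptadine 1 gene was gained (0.495%, against 0.289% of all genes), Zfp982, and 6 were lost (2.97%, against 3.31%), Zfp503, Zfp612, Zfp641, Zfp941, Zfp972 and Zfp977. Under loxapine 2 were gained (0.990%, against 0.953%), Zfp704 and Zfp979, and 3 were lost (1.49%, against 1.22%), Zfp612, Zfp972 and Zfp977. Under DKI 0 were gained (at most 1.87% by the Wilson interval, against 0.265%) and 5 were lost (2.48%, against 2.81%), Zfp503, Zfp612, Zfp941, Zfp972 and Zfp977. Under meclizine 1 was gained (0.495%, against 0.972%), Zfp704, and 2 were lost (0.990%, against 0.775%), Zfp612 and Zfp977. The interval of each share held the background. More of the genes were lost than gained under each compound at this setting, but with scores at or above the pooled median 7 were gained (3.47%, against 1.82% of all genes) and 1 lost (0.495%, against 0.602%) under meclizine, and 5 gained (2.48%, against 1.15%) and 5 lost (2.48%, against 1.64%) under loxapine. At that limit the losses rose to 13 under cyproheptadine (6.44%, against 5.80% of all genes) and 15 under DKI (7.43%, against 5.91%). The limit was a single raw score of 47 for all lists. The median score was 54 under meclizine, 46 under loxapine and DKI, 43 in Q111SST and 40 under cyproheptadine. The limit thus cut the lists at different places. Within 1 kb with all peaks, 202 of all genes were gained and 161 lost under meclizine.

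Most of the lost genes had peaks below the median of the Q111SST list. There Zfp612 stood at the 14.9 percentile, Zfp941 at 12.9, Zfp972 at 18.7, Zfp977 at 32.4, and Zfp641 at 40.6, while Zfp503 stood at 69.3. Zfp612 and Zfp977 had no peak within 1 kb with any of the 4 compounds, and Zfp612 had none in Q7SST either, so its call rests on 1 peak of 657 bp. Zfp982, with a score of 13 in cyproheptadine, and Zfp979, with a score of 24 in loxapine, were each marked in that list alone, and both lie in the chromosome 4 cluster.

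Among the 160 genes marked throughout, percentiles were mostly lower with compound than in Q111SST. The median difference was -4.14 under cyproheptadine, -1.59 under loxapine, -5.74 under DKI and -0.890 under meclizine, against -3.58, -0.337, -6.43 and -1.63 for all genes marked in all 6 lists. The genes lower than in Q111SST numbered 130 under cyproheptadine, 110 under loxapine, 134 under DKI and 104 under meclizine. The share that was higher than in Q111SST was 18.75%, 31.25%, 16.25% and 35.0% in this order, against 28.0%, 46.8%, 21.4% and 33.9% of all genes marked in all 6 lists, so the meclizine share was near that of genes at large. The median ratio of peak width to Q111SST was 0.880 under cyproheptadine, 0.994 under loxapine, 0.850 under DKI and 0.935 under meclizine, and for all genes 0.888, 0.988, 0.836 and 0.942. Cyproheptadine and DKI, with the fewest peaks (33721 and 30758), had the lowest median percentile difference and width ratio. The part of list length was not tested.

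The genes were grouped along the chromosomes by chaining adjacent starts up to 500 kb apart, and chains of 4 or more were called clusters. This gave 14 clusters with 101 of the 202 genes, 38 genes in chains of 2 or 3, and 63 isolated genes. Inside clusters 80 of 101 genes were marked in all 6 lists (79.2%, interval 70.3 to 86.0%), in the short chains 30 of 38 (78.9%, interval 63.7 to 88.9%), and among isolated genes 50 of 63 (79.4%, interval 67.8 to 87.5%). Each of these shares lay within the intervals of the others. One cluster held most of the unmarked clustered genes, and without it 76 of 83 clustered genes were marked in all 6 lists (91.6%, interval 83.6 to 95.9%).

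In 7 clusters all 49 genes were marked in all 6 lists. The largest lay on chromosome 17, with 14 genes from Zfp677 to Zfp945, among them Zfp948, Zfp983, Zfp760 and Zfp820. Of these, Zfp942 and Zfp943 shared a peak in each list, as did Zfp944 and Zfp758. All 14 carried the KRAB pattern, their mean percentiles ran from 83.8 to 99.6, and between 62.2 and 100% of the 50-base windows around their starts were found once in the genome. On chromosome 7, 10 genes from Zfp553 to Zfp646, among them Zfp771, Zfp768, Zfp747 and Zfp764, were marked throughout with lower mean percentiles of 52.5 to 82.3 and a wider median peak of 1873 bp, and 4 carried the KRAB pattern. There Zfp668 and Zfp646 shared a peak in each list. On chromosome 13, 7 genes from Zfp712 to Zfp738, among them Zfp708, Zfp759, Zfp595 and Zfp953, had mean percentiles of 93.3 to 99.5 and a median of 19 finger matches. The 3 arrays thus shared full marking and differed in strength.

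Smaller clusters with full marking were Zfp628, Zfp579, Zfp524, Zfp865, Zfp784 and Zfp580 on chromosome 7, Zfp790, Zfp940, Zfp568 and Zfp566 further along it, and Zfp786, Zfp956, Zfp777 and Zfp746 on chromosome 6. Zfp568, known for silencing a placental transcript of Igf2, had percentiles of 84.4 in Q7SST, 86.8 in Q111SST, 76.0 under cyproheptadine, 86.3 under loxapine, 68.6 under DKI and 81.2 under meclizine, with wide peaks of 2316 to 2467 bp. In the chromosome 9 cluster of Zfp653, Zfp872, Zfp809, Zfp599 and Zfp810, only Zfp872 was unmarked. Zfp809, known for silencing retroviruses through their primer binding site, had percentiles of 97.7, 99.1, 98.3, 97, 96.6 and 97.1 in the same order. Zfp809 was thus among the strongest promoters of each list, with 1221 to 1557 bp.

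The cluster of Zfp968, Zfp965, Zfp969 and Zfp966 on chromosome 2 was marked throughout although 0% of the 50-base windows around its 4 starts were found once in the genome. Its mean percentiles were 37.4 to 53.7, with a median of 43.1 that was the lowest among the 7 clusters with full marking. Reads there fit several places equally, so a peak at 1 of these genes cannot be told apart from a peak at its copies, and how such reads were placed is not given in the sources used here. In the second chromosome 2 cluster, where 17.4 to 47.9% of the windows were found once, Zfp970, Zfp971 and Zfp931 were marked in all 6 lists and Zfp972 in 3.

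**Figure D3:**
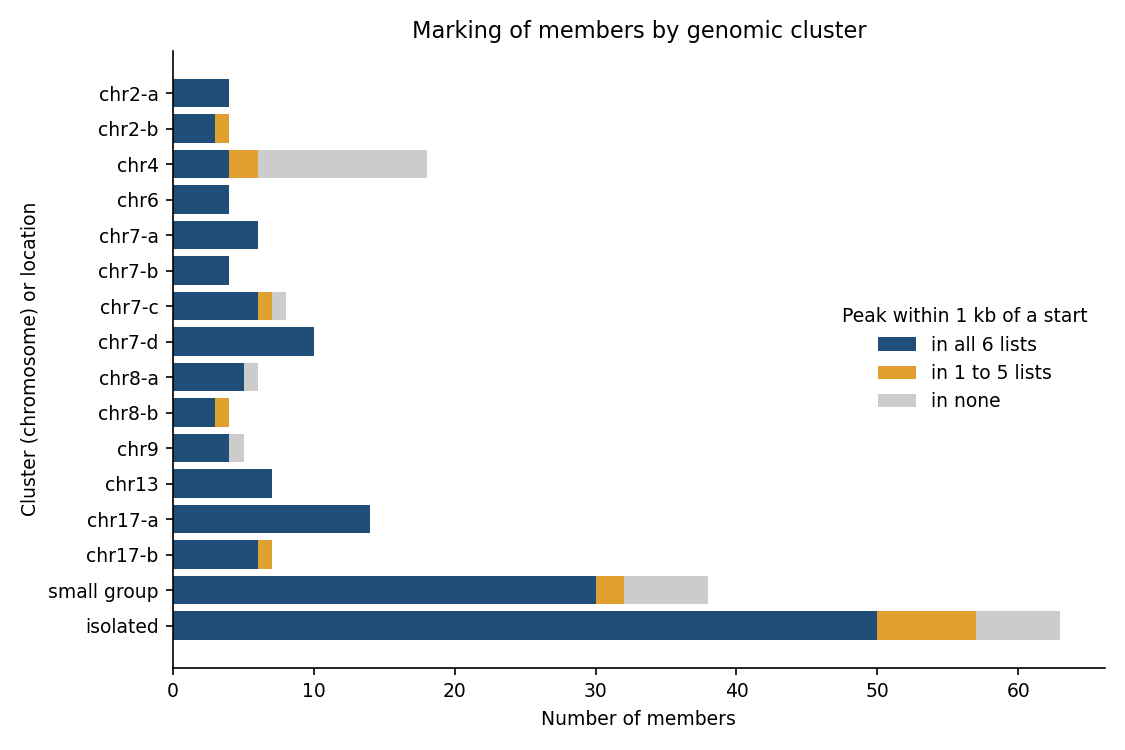
Number of genes (x axis) marked in all 6 lists, in 1 to 5 lists or in none, for each of the 14 clusters, the short chains (small group) and the isolated genes (y axis). The bars of 7 clusters are dark over their whole length, and the chromosome 4 bar holds 12 of the 15 clustered genes marked in no list.

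The chromosome 4 cluster ran over 2338 kb and held 18 genes, of which 17 carried the KRAB pattern. Zfp990, Zfp991, Zfp984 and Zfp933 were marked in all 6 lists (22.2%, interval 9.001 to 45.2%), Zfp982 and Zfp979 in 1, and the other 12 in none: Zfp980, Zfp986, Zfp987, Zfp600, Zfp992, Zfp981, Zfp993, Zfp989, Zfp988, Zfp978, Zfp985 and Zfp534. Zfp933, at the distal end, had percentiles of 98.0 in Q7SST, 99.5 in Q111SST, 97 under cyproheptadine, 98.5 under loxapine, 97.4 under DKI and 97.7 under meclizine. Zfp984 had a peak at each of its 2 starts, 33955 bp apart, in every list. At the start whose promoter is shown its percentiles were 76.8, 77.9, 60.2, 70.9, 56.8 and 75.5 in the same order, and at the other start they were 92.0, 85.4, 70.3, 67.4, 54.3 and 67.9. Zfp933 was thus stronger than either start of Zfp984 in each list.

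Read placement and CpG content were measured at the 5′-most start of each gene of this cluster. The share of 50-base windows found once in the genome had a median of 34.5% over the 18 genes, was 5.69 to 81.3% in the 12 unmarked genes, and 12.7% at Zfp991, 58.9% at Zfp990, 72.7% at Zfp984 and 100% at Zfp933. In every list the strongest peak of Zfp990 lay at its other start, 4125 bp downstream, which neither measure describes. Under cyproheptadine alone, a weaker peak also lay within 1 kb of the 5′-most start. Zfp991 was marked at 12.7% and Zfp985 was not at 81.3%. The median CpG ratio of the cluster was 0.199, against 0.614 for the other 184 genes, and Zfp933 had the highest at 0.492. Zfp991 at 0.308 and Zfp933 lay above all 12 unmarked genes, of which Zfp600 had the highest ratio at 0.272. Zfp984, at 0.273, lay only just above Zfp600. Zfp990 had 0.174 at its 5′-most start, away from its strongest peaks. The part of either measure in the absence of peaks was not tested. Zfp993 changed with the annotation, since it was marked in none of the lists with the basic set of transcripts and in all 6 with all annotated transcripts.

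Of the 18 genes, 11 were matched to a RefSeq promoter, and 10 of these promoters shared sequence with each other. Of the words of 12 bases in the Zfp600 promoter, 226 of 289 (78.2%) also stood in that of Zfp979, marked in 1 list, with an identical run of 93 bases. Zfp600 and Zfp985 shared 86 words and an identical run of 42 bases, and Zfp600 and Zfp984 shared 15 words and a run of 20 bases. The Zfp933 promoter shared 0 words with each of the other 10, and Zfp933 was the most strongly marked of these 11 genes. Zfp990 and Zfp991, also marked in all 6 lists, had no matched promoter. A link between shared sequence and marking was not tested.

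**Figure D4:**
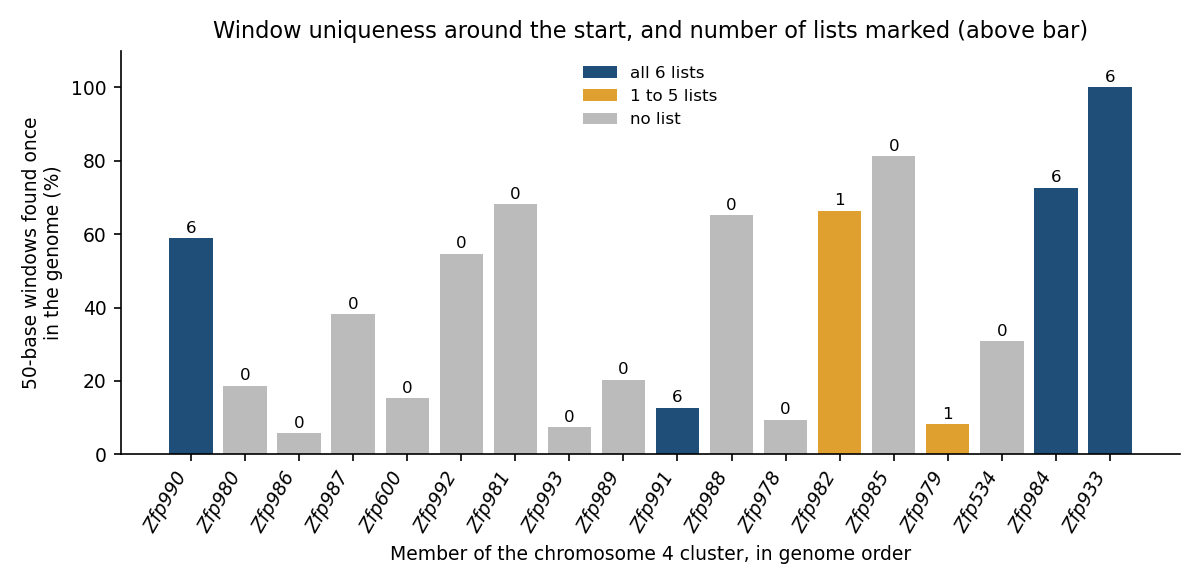
Percent of 50-base windows around the 5′-most start that were found once in the genome (y axis) for the 18 genes of the chromosome 4 cluster in genome order (x axis), with the number of lists in which each was marked above its bar. Zfp991 was marked in all 6 lists at 12.7%, while Zfp985 was marked in none at 81.3%.

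Outside that cluster, 15 genes were marked in no list: Zfp648, Zfp831, Zfp683, Zfp853, Zfp583, Zfp541, Zfp575, Zfp626, Zfp936, Zfp869, Zfp872, Zfp735, Zfp616, Zfp750 and Zfp957. Among them are Zfp541, known from male germ cells, Zfp683, also called Hobit, known from tissue-resident lymphocytes, and Zfp750, known from the epidermis. Over all 27 unmarked genes, 12 had at least 90% unique windows and 9 had less than 50%. The nearest peak of any list was closest at Zfp626 (1272 bp), Zfp981 (1570 bp), Zfp872 (1885 bp), Zfp988 (2649 bp) and Zfp978 (2894 bp). In 9 of the 27 a peak of some list lay within 5 kb, and in 13 none lay within 10 kb.

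Marked and unmarked genes differed in CpG content. Over the 500 bases on either side of the 5′-most start, the median CpG ratio was 0.627 in the 160 genes marked in all 6 lists, 0.434 in the 15 marked in some, and 0.201 in the 27 marked in none. For all genes the medians were 0.749 in those marked in all 6 lists and 0.190 in those marked in none, so the marked zinc finger promoters were poorer in CpG than marked promoters at large. Of genes with a ratio below 0.25, 2 of 21 were marked in all 6 lists (9.52%, interval 2.65 to 28.9%), against 6.59% of all genes with such a ratio.

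At intermediate CpG content the zinc finger genes stood further from other genes. With a ratio from 0.25 to below 0.5, 53 of 65 were marked in all 6 lists (81.5%, interval 70.4 to 89.1%), against 1031 of 3449 of all genes (29.9%, interval 28.4 to 31.4%). Zfp1 to Zfp499 showed the same, with 31 of 34 (91.2%, interval 77.0 to 96.95%). From 0.5 to below 0.75 the share was 87.7% (interval 78.2 to 93.4%) against 75.5%, and from 0.75 it was 95.3% (interval 84.5 to 98.7%) against 89.8%. In the group from 0.25 to below 0.5 the median of the mean percentile was 91.1, against 77.0 for all genes with such a ratio, with widths of 1331 and 1374 bp.

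**Figure D5:**
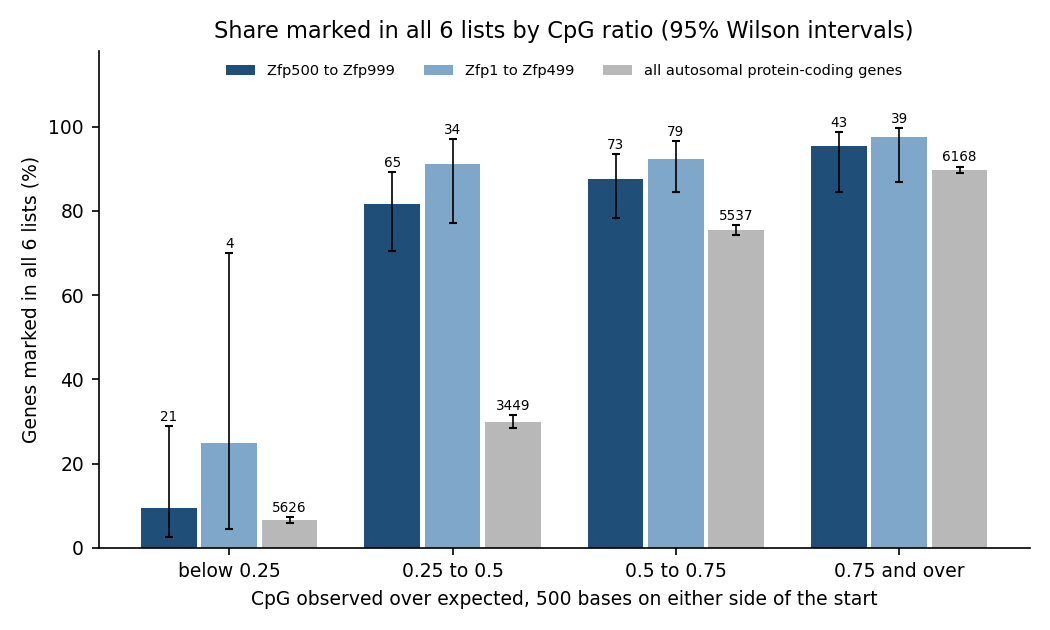
Percent of genes marked in all 6 lists (y axis) by the ratio of observed to expected CpG over 500 bases on either side of the start (x axis), for Zfp500 to Zfp999, Zfp1 to Zfp499 and all autosomal protein-coding genes, with 95% Wilson intervals and the number of genes above each bar. In the bin from 0.25 to 0.5, 81.5% of Zfp500 to Zfp999 were marked against 29.9% of all genes, while below 0.25 the values were 9.52% and 6.59%.

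Short motifs were searched on both strands of the RefSeq promoters, which matched 163 of the 202 genes and 15502 of all 20780. None of the motifs contains another. CCAAT was found in 89 of the 163 promoters (54.6%) against 38.3% of all promoters, and CCGGAAG in 31 (19.0%) against 12.7%. TATAAA was found in 5 (3.07%) against 12.9%, GGGCGG in 75 (46.0%) against 49.3%, and TGACGTCA in 3 (1.84%) against 2.51%. GATGGCGG was found in 7 (4.29%) against 2.44%, and CTCGCGAG in 0 against 1.35%. CCAAT stood in 53.0% of the 134 promoters of genes marked in all 6 lists and in 62.1% of the other 29, and GGGCGG in 49.3% and 31.0%. In the 128 promoters of Zfp1 to Zfp499, CCAAT stood in 42.2%, CCGGAAG in 28.1%, TATAAA in 8.59% and GGGCGG in 43.0%.

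The partners through which KRAB proteins act were marked in nearly every list. Of 18 genes of the co-repressor machinery, 16 were marked in all 6 lists, against 53.5% of all genes. Trim28, the co-repressor that binds the KRAB domain, had percentiles of 73.4 in Q7SST, 74.3 in Q111SST, 64.5 under cyproheptadine, 76.4 under loxapine, 82.2 under DKI and 72.6 under meclizine, and Setdb1 lay between 61.0 and 72.0. Atf7ip, a partner of Setdb1, and Cbx5, a heterochromatin protein, lay at 94.3 or above in each list. Chd3, of the NuRD complex, was marked in the 5 mutant lists and not in Q7SST, and Dnmt3a, a DNA methyltransferase, was marked in 4 lists, at the 32.6 percentile or below.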

How the data were processed

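Chromatin of STHdh cells was fixed with formaldehyde, cut with micrococcal nuclease and enriched with an anti-H3K4me3 antibody, and 50-base single-end reads were sequenced. The authors deposited 1 peak list per condition, in which each peak has a whole-number score. The score's scale, the peak thresholds, any input control and any pooling of the triplicate treatments that the series' design names are not given in the sources used here. The submitters' processing notes name Trimmomatic 0.36, Bowtie2, SAMtools 1.3, MACS2 and build mm10. Read totals were not used, so sequencing depth is unknown.

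Groups were taken from the labels. No peak passed the end of any of 21 chromosomes of GRCm38. Starts were those of the basic transcripts of GENCODE M21, and a percentile is the mid-rank of a score within its list. The members and gene lists were chosen with earlier results of these data known. Shares carry 95% Wilson intervals. Uniqueness is the share of 952 windows of 50 bases, over 500 bases on either side of the 5′-most start, that occur once in the genome on either strand. CpG ratio is the observed count over that expected from C and G content. Promoters came from RefSeq, and those more than 1 kb from a GENCODE start were left out. Finger and KRAB patterns were searched in coding sequence translated from the genome.

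Genes were named by rule: those marked in 1 line only; the 5 strongest gained or lost per comparison; the 5 with the highest and lowest mean percentile, the widest and narrowest peak, the largest difference between lines in each direction, and the nearest peak among unmarked genes; up to 5 per cluster; and the co-repressors. Other unmarked genes and cluster genes beyond the first 5 fall outside this rule and were named after their values were seen. Alternatives were other windows, starts, list sizes and score limits, other chain distances, merged peaks, and subsets of genes. Marking, uniqueness and finger counts were tested on simulated data. Python 3.11.15, numpy 2.4.6, scipy 1.17.1, numba 0.67.0 and matplotlib 3.10.9 were used.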

Additional observations from a re-analysis of the deposited data

How the results depend on the processing

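Over the 36 values recomputed, 129 alternatives stayed within the interval or within 1.5 times the count and 54 moved. The balance of gained and lost genes turned under meclizine, from 1 gained and 2 lost to 7 gained and 1 lost, with scores at or above the pooled median. That limit sets raw scores of different lists against each other. With a peak required over the start, 77.7% of the genes were marked in Q7SST, 75.7% in Q111SST, 69.8% under cyproheptadine, 73.8% under loxapine and 75.7% under meclizine, 13 were lost under cyproheptadine, 1 gained and 5 lost under loxapine, 1 gained and 3 lost under DKI, and 1 lost under meclizine. With scores at or above the pooled median of 47, 75.7% were marked in Q111SST, 69.3% under cyproheptadine, 75.7% under loxapine and 68.8% under DKI, 11 were gained in Q7SST, 0 gained and 13 lost under cyproheptadine, 5 gained and 5 lost under loxapine, 1 gained and 15 lost under DKI, 7 gained and 1 lost under meclizine, and 2 were marked in the 5 mutant lists only. Over the 5 settings that changed the window, the start, the score limit or the list size, the interval of the genes' share held the share of all genes in every gained and lost call except the losses under DKI with a peak over the start (1.49%, interval 0.506 to 4.27%, against 5.26%). Counts can also hide other genes: with a peak over the start, 0 of the genes gained under any of the 4 compounds were among those gained within 1 kb, and at the pooled median 1 of the 13 losses under cyproheptadine and 1 of the 15 under DKI was among the losses within 1 kb. Within 5 kb, 2 were gained under cyproheptadine, 1 under loxapine and 1 under DKI, where 8 were lost. With lists of equal size (30758 peaks), 0 were gained and 3 lost under cyproheptadine, 1 was gained under loxapine, 2 were lost under DKI and 1 under meclizine, and 2 were marked in the 5 mutant lists only. With the 5′-most start alone, 1 was gained under DKI and 2 under meclizine.

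Chosen after seeing the data were the limits to unique promoters, to genes outside the chromosome 4 cluster, and all annotated transcripts. In the 147 genes with at least 90% unique windows, 89.8% were marked in Q7SST, 88.4% in Q111SST, 85.7% under cyproheptadine, 88.4% under loxapine, 86.4% under DKI and 88.4% under meclizine, 0 were gained under cyproheptadine, 1 gained and 1 lost under loxapine, 3 lost under DKI and 1 lost under meclizine. The share of all genes gained or lost at this limit was not computed, so these counts have no background. Without the chromosome 4 cluster the shares were 90.2%, 88.6%, 85.3%, 87.5%, 85.9% and 88.0% in the same order of lists. Of the 18 genes of that cluster, 4 were marked in all 6 lists. Both sets of shares cover fewer genes than the main ones, and the cause of a move was not tested for any setting. No paired analysis was possible because no condition had a second list. Depth, replicate spread and the placing of repeated reads are unknown, so gained and lost calls of a few genes have no error between cultures.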
